A study of Mus musculus with 4 samples.

Results

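Genes of homologous recombination, Fanconi repair, mismatch repair and DNA damage checkpoints were followed in mouse liver tumors with p53 silenced and after p53 had been switched back on. The set named 35 genes by their known function, and it was chosen with earlier results of these data known. The rule kept every probe set that the platform annotation pairs with exactly 1 symbol, that of a member. This gave 76 of the 45037 probe sets and 34 of the 18193 genes; Xrcc2 was not analysed here, nor were 2 probe sets that pair a member with another gene. Each sample was total RNA of 1 liver tumor sample on 1 Affymetrix 430 2.0 mouse array. The tumors of all 4 samples grew from LPCs, liver progenitors able to form hepatocytes and bile duct cells, placed in the livers of recipient mice, driven by HrasV12 and carrying tet-off shp53, a hairpin RNA against p53 that doxycycline turns off. The p53 off group (2 samples) had 0 days of doxycycline and the p53 on group (2 samples) 8 days, given in chow. The sources used here give no strain, sex or age of the mice, and no sample had doxycycline without the hairpin, so restored p53, doxycycline and 8 days of time cannot be told apart. The labels do not say whether replicates came from separate animals, so each p-value weighs the change against a spread between samples that may be technical.

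Homologous recombination repairs broken DNA and stalled replication forks by copying the sister strand. The MRE11, RAD50 and NBN proteins sense the break, exonucleases trim its ends, and BRCA1, PALB2 and BRCA2 prepare them for strand exchange. The Fanconi proteins open crosslinks in replicating DNA, and the kinases ATM, ATR, CHEK1 and CHEK2 halt the cell cycle meanwhile. In adult liver few cells divide, and many of these genes are known to be transcribed mainly in S phase, under E2F transcription factors.

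As many members were lower in p53 on as did not pass the threshold, and few were higher. By the brightest probe set of each gene, Brca1, Exo1, Mre11a and Topbp1 fell furthest. With the mean of all probe sets these genes were at -0.39, -0.37, -0.47 and -0.49. Eme1, Chek2 and Rad18 then fell further, at -0.65, -0.65 and -0.64. Of 34 measured members 16 were lower and 2 higher at a limma adjusted p under 0.05, and 16 did not pass. The 2 higher were Rad51b and Timeless, by their brightest probe sets. With the mean of all probe sets Rad51b was at -0.25 and Timeless at 0.18 (limma adjusted p = 0.0381 and 0.161). Over all genes 14.7% were lower and 14% higher by the same rule, 28.7% in either direction, so the share of members that were lower lay above the background and the share that were higher below it. The median change of the members was -0.265 on the log2 scale, against 0.0228 for all genes. The 16 falls ranged from 1.26-fold to 2.02-fold with a median of 1.48-fold, and 1 member, Brca1, changed by at least 2-fold. In 26 members the values of the 2 groups did not overlap, 23 lower and 3 higher in p53 on. That alone is common here, since 66.7% of all genes, 30.4% as lower and 36.3% as higher, had groups that did not overlap. Without p53 off replicate 1 or 2, which leaves 1 array in that group, fewer members passed in each direction, and so did fewer of all genes. Leaving out any 1 array gave a median change of the members between -0.312 and -0.301. After centring of every array on its own median 20 members were lower and 2 higher, and after scaling to the spike-in controls 12 and 3; of all genes called, 48.8% were higher as deposited, 37.9% after centring and 70% after spike-in scaling.

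**Figure D1:**
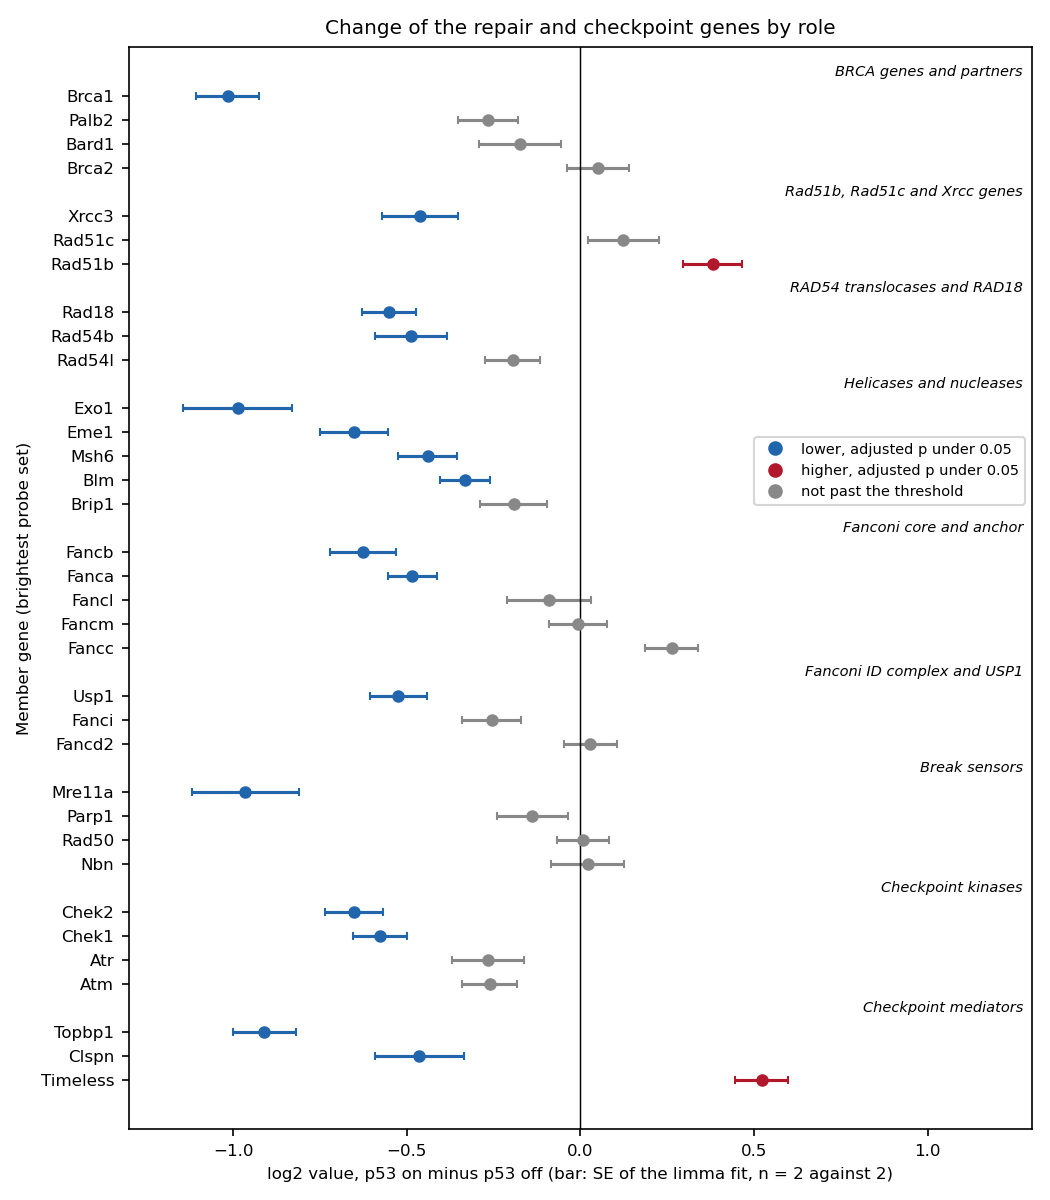
Change of each of the 34 measured members (x axis, log2 value in p53 on minus p53 off; bars, SE of the limma fit, n = 2 against 2), grouped by role, each gene by its brightest probe set. Blue points are lower and red points higher at an adjusted p under 0.05; the 16 blue points lie between -0.33 and -1.02, and the red points are Rad51b and Timeless.

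Promoters of the members were searched for E2F and other cell cycle motifs. RefSeq windows (GRCm38.p6) running from 250 bases before to 50 after a start site were found for 28 of the 35 named genes, with 32 windows in all; Exo1, Fancd2, Nbn, Rad50, Rad54b, Usp1 and Xrcc2 had none in the table. An E2F core, searched as TTCCCGC or TTGGCGC on both strands, stood in 37.5% of the 32 member windows and in 6.81% of all 32851 windows of 300 bases, which cover genes of every kind. Among members with a window it was present in 6 of 13 members that were lower and in 6 of the other 15, a difference that was not tested. The CCAAT box (CCAAT, both strands) was in 56.2% of member windows against 37.4% of all. The cell cycle homology element CHR (TTTGAA, both strands) was in 9.38% against 17.9%. No match to one motif overlapped a match to another in the member windows. The stretches below show every E2F core that lay wholly upstream of a member's start site. Capitals mark the E2F core, read on either strand, and a CCAAT box where one lies in the stretch (Fancb and Fancm). The first 3 genes were lower in p53 on and the last 4 did not pass the threshold.
Chek2, chr5:110839801-110839860, plus strand, bases -182 to -123 from the start site: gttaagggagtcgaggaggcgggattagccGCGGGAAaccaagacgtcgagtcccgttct
Fancb, chrX:164980390-164980449, plus strand, bases -202 to -143 from the start site: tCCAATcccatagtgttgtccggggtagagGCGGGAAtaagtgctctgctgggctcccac
Topbp1, chr9:103305165-103305224, plus strand, bases -162 to -103 from the start site: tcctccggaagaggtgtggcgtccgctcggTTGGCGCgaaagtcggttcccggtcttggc
Bard1, chr1:71103151-71103210, minus strand, bases -238 to -179 from the start site: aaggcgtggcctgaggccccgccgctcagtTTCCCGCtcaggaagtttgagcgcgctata
Brca2, chr5:150522423-150522482, plus strand, bases -198 to -139 from the start site: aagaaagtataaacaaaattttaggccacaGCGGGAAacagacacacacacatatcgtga
Fancm, chr12:65075519-65075578, plus strand, bases -84 to -25 from the start site: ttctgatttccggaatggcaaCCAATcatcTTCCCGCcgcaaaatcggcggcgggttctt
Rad51c, chr11:87404993-87405052, minus strand, bases -98 to -39 from the start site: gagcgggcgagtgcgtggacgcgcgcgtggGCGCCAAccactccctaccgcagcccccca
A match is a description of these letters and not of bound factor.

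Among the BRCA genes and their partners, Brca1 fell and the others did not pass the threshold as deposited. Brca1, whose protein acts with BARD1 as a ubiquitin ligase and starts recombination at breaks, had log2 values of 7.83 and 7.79 in p53 off, against 6.71 and 6.89 in p53 on. The groups lay 0.91 apart, and the change was -1.02 ± 0.090 (SE, n = 2 against 2, limma adjusted p = 0.00148). This was the largest fall among the brightest probe sets of the members. Bard1, its obligate partner, was at 6.53 and 6.54 with p53 silenced and 6.20 and 6.52 with p53 on, so that a single p53 on array was low. Its change was -0.17, with a 95% interval of the limma fit from -0.468 to 0.122, and it passed without p53 on replicate 2 (-0.33, adjusted p = 0.0493). Palb2, the bridge between BRCA1 and BRCA2, changed by -0.27 (95% interval -0.481 to -0.0488, adjusted p = 0.0738), and passed after quantile normalization (0.0281) or median centring (0.0254). Brca2, which acts at the resected break, was at 8.06 and 7.96 in p53 off, against 7.99 and 8.13 in p53 on, with overlapping groups and a change of 0.05 (95% interval -0.172 to 0.273). The probe sets of Brca1 differed in size. Fitted over all probe sets, the brightest changed by -1.02 and the others by 0.05, -0.26 and -0.32, the last of these past the threshold, and with the mean of all 4 the gene was at -0.39 (adjusted p = 0.00923, range over the alternatives 0.000387 to 0.0167).

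Rad51b, Rad51c and Xrcc3, which assist strand exchange, split. Xrcc3 was at 6.83 and 6.56 on the p53 off arrays and 6.25 and 6.21 on the p53 on arrays, a change of -0.46 ± 0.11 (limma adjusted p = 0.0297). Rad51c changed by 0.12 (95% interval -0.131 to 0.378) with overlapping groups. Rad51b went in both directions depending on the probe set. Its brighter probe set was at 6.61 and 6.46 with p53 silenced and 6.92 and 6.92 with p53 on, a rise of 0.38 ± 0.084 (adjusted p = 0.0236). The dimmer probe set was at 6.75 and 6.81 in p53 off, against 5.95 and 5.84 in p53 on, a fall of 0.89 on the log2 scale (limma over all probe sets, adjusted p = 0.00176). Rad51b therefore has no single direction on this array, and the mean of both probe sets was at -0.25 (adjusted p = 0.0381). The call of the brighter probe set was lost without p53 off replicate 1 (0.0502) or 2 (0.15), with a range over the alternatives of 0.0104 to 0.15. That of Xrcc3 was lost without p53 off replicate 1 (0.113), without p53 on replicate 2 (0.0602) and with spike-in scaling (0.0757). The other Xrcc3 probe set, which has no suffix that marks shared probes, was at -0.18 (adjusted p = 0.177, the highest over the alternatives; the lowest was 0.00837).

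The RAD54 proteins are motors that move along DNA during recombination, and RAD18 is the ubiquitin ligase that marks PCNA at stalled forks. Rad18 was at 9.28 and 9.17 on the p53 off arrays and 8.67 and 8.68 on the p53 on arrays, a change of -0.55 ± 0.078 (adjusted p = 0.0058). Each of its 4 probe sets was lower, from -0.55 to -0.80, which makes it the member whose fall was seen by the most probe sets. Rad54b was at 5.86 and 6.01 with p53 silenced and 5.35 and 5.55 with p53 on, a change of -0.49 ± 0.10 (adjusted p = 0.0209) at a level that only 7.43% of genes lie under. RMA gives no detection call, so whether this gene was above background is not known. Rad54l changed by -0.20 (95% interval -0.391 to 0.000884). The call of Rad54b was lost without p53 off replicate 1 (0.0552) or 2 (0.133; range 0.00901 to 0.133).

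Of 5 members grouped as helicases, nucleases and a mismatch sensor, 4 were lower (80%, against 14.7% of all genes). Exo1, the exonuclease that trims break ends and also serves mismatch repair, was at 7.43 and 7.45 in p53 off, against 6.22 and 6.69 in p53 on. Its change was -0.99 ± 0.16 (limma adjusted p = 0.00824), with the p53 on arrays further apart than the p53 off arrays. Its other 2 probe sets changed by -0.08 and -0.06 and did not pass the threshold, and the mean of the 3 was at -0.37 (adjusted p = 0.0144). Eme1, a subunit of the MUS81 nuclease that cuts joined DNA molecules, was at 7.89 and 7.97 on the p53 off arrays and 7.17 and 7.38 on the p53 on arrays, a change of -0.65 ± 0.099 (adjusted p = 0.00714). Msh6, which encodes a subunit of a sensor of mismatched bases, was at 8.90 and 8.88 with p53 silenced and 8.38 and 8.53 with p53 on, a change of -0.44 ± 0.084. Blm, the Bloom helicase, was at 8.23 and 8.25 in p53 off, against 7.89 and 7.93 in p53 on, a change of -0.33 ± 0.072 (adjusted p = 0.0217). Brip1, the BRCA1-bound helicase, changed by -0.19 (95% interval -0.433 to 0.0497). Both Msh6 and Blm kept groups that do not touch, but lost their calls under more alternatives than Eme1 and Exo1 did. Each call was lost without p53 off replicate 1 (changes of -0.43 for Msh6 and -0.34 for Blm) or 2 (-0.45 and -0.32). With spike-in scaling the limma adjusted p was 0.0528 for Msh6 and 0.111 for Blm. Blm was also lost without p53 on replicate 1 (0.0596); the ranges were 0.00581 to 0.0892 and 0.0109 to 0.137. Eme1 (0.0591, range 0.00274 to 0.0591) and Exo1 (0.058, range 0.000652 to 0.058) were lost without p53 off replicate 2.

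**Figure D2:**
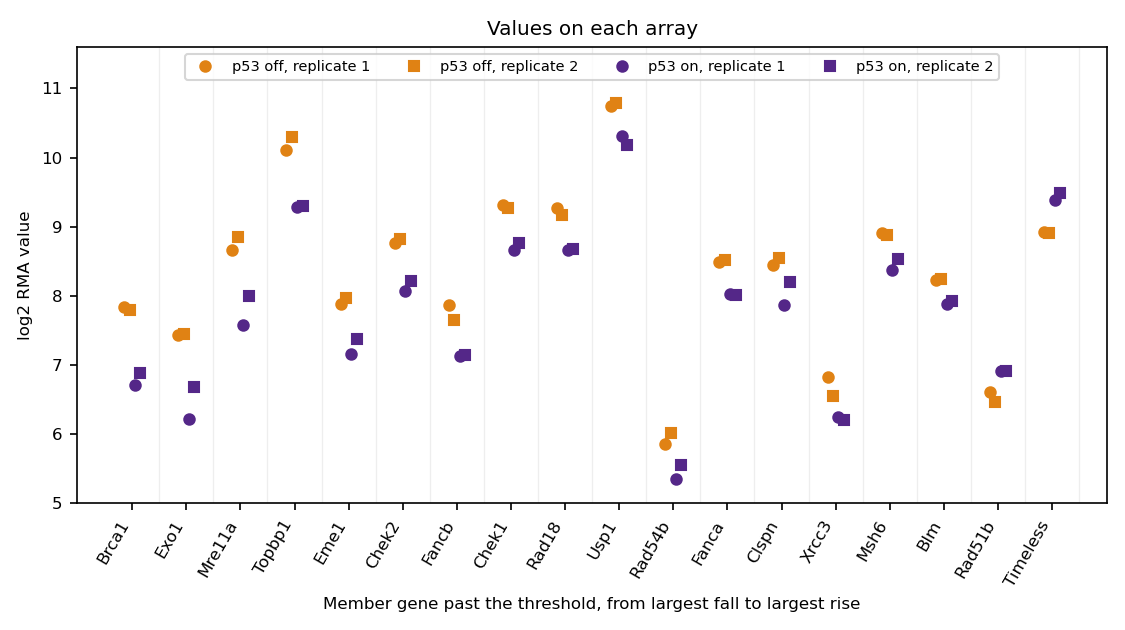
Log2 RMA value (y axis) on each of the 4 arrays for the 18 members past the threshold (x axis, from the largest fall to the largest rise, brightest probe set each). Orange marks are p53 off and violet marks p53 on, circles replicate 1 and squares replicate 2. In every gene shown the 2 groups do not overlap, as in 66.7% of all genes. The p53 on arrays of Exo1 lie at 6.22 and 6.69 and those of Mre11a at 7.58 and 8.00.

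In the Fanconi pathway the core subunits Fanca and Fancb fell, while the monoubiquitinated pair Fancd2 and Fanci did not pass the threshold. Fancb, a core subunit encoded on the X chromosome whose promoter holds an E2F core, was at 7.87 and 7.66 on the p53 off arrays and 7.13 and 7.15 on the p53 on arrays. The change was -0.63 ± 0.095 (limma adjusted p = 0.00725). Its second probe set changed by -0.06 and did not pass, and the mean of both was at -0.34 (adjusted p = 0.0287). Fanca was at 8.49 and 8.52 with p53 silenced and 8.03 and 8.01 with p53 on, a change of -0.48 ± 0.071 (adjusted p = 0.00647). Usp1, the protease that removes ubiquitin from FANCD2, was at 10.75 and 10.80 in p53 off, against 10.31 and 10.18 in p53 on, a change of -0.52 ± 0.082 (adjusted p = 0.00797). The changes of Fancl, the ubiquitin ligase of the complex, and Fancm, its DNA anchor, were -0.09 and -0.01, with overlapping groups. Fancc, another core subunit, was at 8.35 and 8.43 on the p53 off arrays and 8.68 and 8.63 on the p53 on arrays; its change of 0.26 lay just outside the threshold (adjusted p = 0.053), whereas Clspn at 0.0477 lay just inside it. Fancd2 changed by 0.03 (95% interval -0.165 to 0.223) in a probe set that 34.3% of genes lie under, and its other 3 probe sets changed by 0.14, -0.29 and 0.18. Fanci changed by -0.26 (95% interval -0.468 to -0.0436, adjusted p = 0.0772). The calls of Fanca (0.058, range 0.003 to 0.0614) and Usp1 (0.0668, range 0.00353 to 0.0668) were lost without p53 off replicate 2. Fanca was also lost with the mean of its 2 probe sets (-0.21, 0.0614).

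Of the 4 break sensors only Mre11a passed the threshold, and only in its brighter probe set. Mre11a, the nuclease of the MRE11, RAD50 and NBN complex, was at 8.66 and 8.85 with p53 silenced and 7.58 and 8.00 with p53 on, a change of -0.96 ± 0.15 (limma adjusted p = 0.00848). Rad50 was at 9.14 and 9.22 in p53 off, against 9.20 and 9.18 in p53 on, a change of 0.01 (95% interval -0.181 to 0.195). Nbn changed by 0.02 (95% interval -0.243 to 0.285), and in both genes the groups overlapped. The 95% interval of Mre11a ran from -1.35 to -0.577; the differences between these genes were not tested. Parp1, which detects nicks and breaks and coats them with poly(ADP-ribose), changed by -0.14 (95% interval -0.392 to 0.116). The fall of Mre11a rests on 1 of its 2 probe sets, since the dimmer one was at 7.17 and 7.04 on the p53 off arrays and 7.19 and 7.05 on the p53 on arrays, a change of 0.015, and the mean of both was at -0.47 (adjusted p = 0.00812). Leaving out p53 off replicate 2 also ended the call (0.0625; range 0.00128 to 0.928).

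Among the checkpoint kinases the effector kinases fell past the threshold and the apical kinases did not. Chek1, the effector of ATR, was at 9.31 and 9.27 with p53 silenced and 8.66 and 8.76 with p53 on, a change of -0.58 ± 0.078 (limma adjusted p = 0.00499). Of its 5 probe sets 3 were lower, at -0.58, -0.82 and -0.44, and the 2 dimmest did not pass. Chek2, the effector of ATM, has a single probe set, at 8.77 and 8.82 in p53 off, against 8.07 and 8.21 in p53 on, a change of -0.65 ± 0.084 (adjusted p = 0.00428). Atm was at 9.11 and 9.05 on the p53 off arrays and 8.87 and 8.77 on the p53 on arrays, and its change was -0.26 (95% interval -0.459 to -0.0626, adjusted p = 0.0609). Atr was at 8.72 and 8.77 with p53 silenced and 8.60 and 8.36 with p53 on, with a change of -0.27 (95% interval -0.523 to -0.00848, adjusted p = 0.115). In the brightest probe sets the groups of all 4 kinases were apart, with p53 on the lower, as they were for 30.4% of all genes. Atm passed the threshold after median centring of the arrays (0.0253), and Atr without p53 on replicate 1 (0.0319). The other probe sets of the apical kinases did not follow the brightest: that of Atm changed by 0.0048, and those of Atr by -0.02 and 0.22, none past the threshold. With the mean of all probe sets Atm was at -0.13 and Atr at -0.02. The difference between kinases was not tested.

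Mediators, which carry the signal from ATR to CHEK1 and protect the fork, changed in opposite directions. Topbp1, the activator of ATR, was at 10.11 and 10.30 in p53 off, against 9.29 and 9.30 in p53 on, a change of -0.91 ± 0.091 (limma adjusted p = 0.00206). Its second probe set changed by -0.07 and did not pass, and the mean of both was at -0.49 (adjusted p = 0.00844). Clspn, the adaptor that presents CHEK1 to ATR, was at 8.45 and 8.54 on the p53 off arrays and 7.86 and 8.21 on the p53 on arrays, a change of -0.46 ± 0.13 (adjusted p = 0.0477). Timeless, part of the fork protection complex, was at 8.92 and 8.91 with p53 silenced and 9.39 and 9.48 with p53 on, a rise of 0.52 ± 0.076 (adjusted p = 0.00636). Tipin, the binding partner of TIMELESS and not a member, was at 10.65 and 10.82 in p53 off, against 9.48 and 9.74 in p53 on, a change of -1.12 ± 0.12. The second Timeless probe set was at 6.81 and 6.85 on the p53 off arrays and 6.54 and 6.80 on the p53 on arrays, a change of -0.16 that did not pass, and the mean of both was at 0.18 (adjusted p = 0.161). The rise of Timeless was also lost without p53 off replicate 2 (0.0545, range 0.00297 to 0.161). Clspn lost its call without p53 off replicate 1 (0.126) or 2 (0.22), without p53 on replicate 1 (0.0852, change -0.29) and with spike-in scaling (0.0999); its range was 0.00608 to 0.22.

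Probe sets of 1 gene disagreed often enough to set how the counts can be read. Of the 76 member probe sets 23 were lower and 2 higher, against 11.5% lower and 11.3% higher of all 45037 probe sets. Without p53 off replicate 1 or 2 fewer member probe sets were lower. Of 11 members that were lower as genes and have more than 1 probe set, 3 (Brca1, Chek1 and Rad18) had more than 1 lower probe set in this fit. In the other 8 a fall was called in 1 probe set; for Clspn that was the dimmer one (-0.38, adjusted p = 0.0485), since the brighter one reached 0.054 here. Rad51b was the member with probe sets called in both directions. The second Rad51b probe set brings the genes with at least 1 lower probe set to 17.

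**Figure D3:**
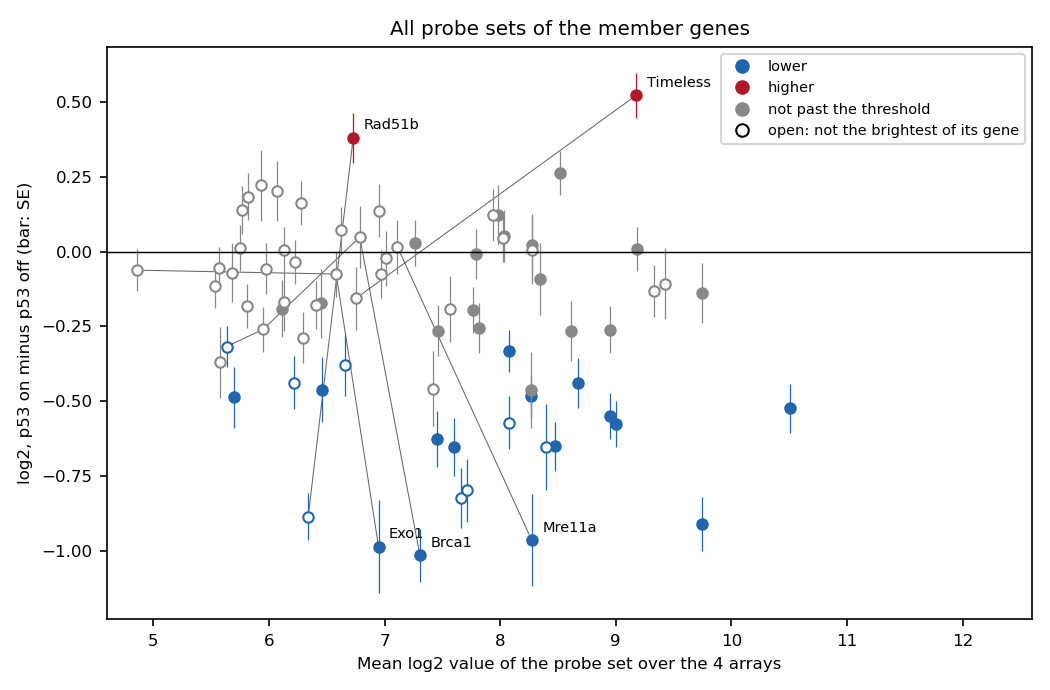
Change (y axis, log2 in p53 on minus p53 off; bars, SE of the limma fit over all probe sets) against mean log2 value over the 4 arrays (x axis) for the 76 member probe sets. Filled points are the brightest probe set of a gene, open points its others, and lines join the probe sets of Rad51b, Timeless, Brca1, Exo1 and Mre11a, whose probe sets differ; the Rad51b pair stands at 0.38 and -0.89.

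Genes that work beside the members were counted from a list of 115 other repair and checkpoint genes, of which 103 were measured. In p53 on 25 were lower and 12 higher, shares of 24.3% and 11.7% beside 14.7% and 14% of all genes, and the median change was -0.117. Without p53 off replicate 1 or 2 fewer of these genes passed in each direction, as did fewer of all genes. Of 30 other homologous recombination genes 5 were lower and 3 higher (16.7% and 10%, near the shares of all genes), with a median of 0.0127. Hells, a chromatin remodeller of the SNF2 family, fell furthest, at -1.87 ± 0.074 (limma adjusted p = 0.000311), followed by Fignl1, an ATPase of recombination, at -1.15 ± 0.14, and the Werner helicase gene Wrn at -0.69 ± 0.15. Rev1, a translesion polymerase gene, rose by 0.54 ± 0.072, Uimc1, which encodes the RAP80 subunit that brings BRCA1 to ubiquitin, by 0.44 ± 0.075 and Rad52 by 0.34 ± 0.082. Of the 8 other Fanconi genes Ube2t, the ubiquitin-conjugating enzyme that serves FANCL, changed by -1.18 ± 0.089 and Fancf by -0.59 ± 0.13, while the core subunit genes Fance and Fancg rose by 0.65 ± 0.083 and 0.51 ± 0.077. The core complex thus held genes that fell (Fanca, Fancb, Fancf) and genes that rose (Fance, Fancg). Averaged over their probe sets, Hells (-0.83), Fignl1 (-0.52) and Ube2t (-0.60) changed less and stayed past the threshold. Leaving out p53 off replicate 2 ended the calls of Wrn (0.113, range 0.00169 to 0.113), Uimc1 (0.0856, range 0.00496 to 0.0856), Rad52 (0.0802), Fancf (0.14) and Fancg (0.0618, range 0.00344 to 0.0618). Wrn (0.0775), Rad52 (0.151, range 0.00826 to 0.151) and Fancf (0.0806) were also lost without p53 off replicate 1, Rad52 without p53 on replicate 1 (0.0673) or 2 (0.0555) and after quantile normalization (0.0691) or centring (0.0771), and Fancf with the mean of its probe sets (-0.14, 0.203; range 0.00331 to 0.203).

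Checkpoint and end joining genes outside the set were lower more often than higher. Of 21 other checkpoint genes 8 were lower (38.1%, against 14.7% of all genes) and 0 higher, with a median of -0.204. Besides Tipin these included Cdc25a, the phosphatase that CHEK1 targets for destruction, at -1.08 ± 0.14 and Rif1, which steers break repair away from resection, at -0.87 ± 0.16. Of 12 end joining genes, which rejoin broken ends without a template, 4 were lower and 2 higher, with a median of -0.173. Their share lower was 33.3%, and their share higher, 16.7%, lay near the 14% of all genes. Lig4, the ligase of the pathway, changed by -1.11 ± 0.11 (limma adjusted p = 0.0021), Xrcc5, which encodes the Ku80 end-binding subunit, by -1.01 ± 0.12 and Prkdc, the DNA-dependent kinase gene, by -0.59 ± 0.088. The 2 that were higher were Parp2 at 0.33 ± 0.090 and Poll, a gap-filling polymerase gene, at 0.26 ± 0.071. The 4 other mismatch repair genes measured (Mlh3, Msh3, Pms1 and Pms2) ranged from -0.24 to -0.13 and did not pass the threshold. With the mean of all probe sets Cdc25a was at -0.55 (adjusted p = 0.00942). Rif1 lost its call without p53 off replicate 1 (0.0663) or 2 (0.0621) and in its brightest probe set without a suffix letter (-0.32, 0.144; range 0.00109 to 0.144). Parp2 (0.109 and 0.227) and Poll (0.19 and 0.189) lost theirs without p53 off replicates 1 and 2, Parp2 also without p53 on replicate 2 (0.119) and Poll without p53 on replicates 1 and 2 (0.104 and 0.102), and both after median centring (0.0771 and 0.153) and Poll after quantile normalization (0.0883), with ranges of 0.0178 to 0.227 and 0.0147 to 0.19.

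By their median the members stood between the proliferation genes and the other repair genes. Of 34 DNA replication genes 24 were lower with a median of -0.631, and of 27 mitosis genes 26 were lower with a median of -0.972, against -0.265 for the members. The largest falls were those of Rrm2 (-1.65), Orc6 (-1.39) and Tk1 (-1.28) among the replication genes and Ect2 (-2.08), Ube2c (-2.03) and Anln (-2.02) among the mitosis genes. The summed level of the replication genes, on the linear scale, came to 42200 and 46800 on the p53 off arrays and to 26700 and 29900 on the p53 on arrays, and that of the mitosis genes 32000 and 37500 against 14500 and 16200. Lists were described by counts and medians, and the difference between the medians was not tested. The lists also differed in median log2 level, at 8.17 for the members and 8.39 for the other repair and checkpoint genes. It was 9.42 for the replication genes and 9.36 for the mitosis genes, and the part of level in the order was not tested. Of 17 measured genes listed as known p53 targets 14 were higher, 0 lower and 3 not past the threshold, while 14% of all genes were higher. Eda2r (2.11) and Trp53inp1 (1.98) rose furthest, and Cdkn1a and Mdm2 rose by 1.44 ± 0.099 and 0.83 ± 0.079. In its brightest probe set without a suffix letter Mdm2 was at 0.17 (limma adjusted p = 0.204, range 0.000564 to 0.204). The p53 gene itself was not analysed here.

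**Figure D4:**
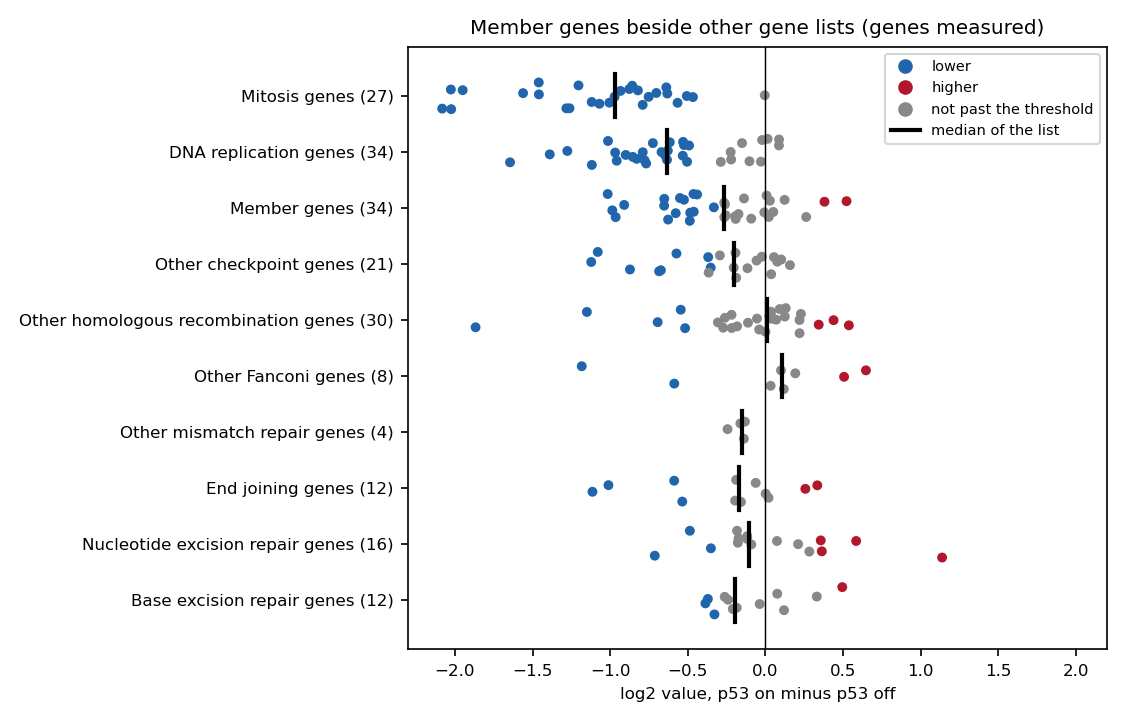
Change of each measured gene (x axis, log2 in p53 on minus p53 off) in the member set and in 9 other lists, with the number of genes measured in brackets. Blue points are lower and red points higher at an adjusted p under 0.05, and the black bar is the median of the list, -0.972 for mitosis genes, -0.631 for DNA replication genes and -0.265 for the members.

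Epithelial, macrophage, fibroblast and endothelial markers differed between the groups in the same samples. Of all genes 14% were higher and 14.7% lower. Of 10 measured epithelial markers 7 were lower and 1, Epcam, higher; their summed linear level was 40000 to 46300 in p53 off and 17300 to 18000 in p53 on. Of 14 macrophage markers 9 were higher (26600 to 29700 against 46300 to 54500), and of 12 fibroblast markers 10 (61700 to 71400 against 113000 on both arrays). Among 12 endothelial markers 9 were higher and 1, Lyve1, lower (6960 to 7380 against 9740 to 11100). T and NK cell markers were higher in 3 of 13 (2000 to 2250 against 3460 to 6300) and B cell markers in 1 of 6 (1140 to 1180 against 1440 to 1480). Of 8 neutrophil markers 1 was higher, with sums that overlapped (1390 to 2050 against 1510 to 1930). The B cell and neutrophil shares, 16.7% and 12.5%, lay near the 14% of all genes. Hepatocyte markers, the labelled tissue's own, were lower in 3 of 11 and higher in 1 (3440 to 3850 against 2280 to 3060). Single genes weighed heavily in 3 of these sums. Without Gzma the T and NK sum was 1650 to 1710 against 1940 to 2070, a smaller difference with the groups still apart. Without Cd22 the B cell sum was 591 to 626 against 626 to 632, so the groups touched. Without Apob the hepatocyte sum was 2430 to 2500 against 2180 to 2930, so the groups overlapped. The deposited scale has no value at 0, and the dimmest marker in these lists, Cd8b1, had a mean of 5.56. In these bulk samples fewer cells of a type and less RNA per cell cannot be told apart, and the part of cell makeup in the fall of the members was not tested. For RNA quality, the 3' beta-actin control stood above the 5' one by 0.395 and 0.262 log2 units in p53 off and by 0.478 and 0.492 in p53 on; the part of this in the result was not tested.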

How the data were processed

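The deposited table holds 1 log2 value per probe set and array, which the authors made with RMA (background correction, quantile normalization and summary), per the submitters' processing notes; limma 3.14.4 is listed there too. Values ran from 4.66 to 14.9. Of 45101 probe sets 64 were controls. A gene was represented by its brightest probe set among those with exactly 1 symbol (34945 of 45037; 932 had several and 9160 none). All 34 measured members matched RefSeq (GRCm38.p6) by gene ID. Genes, and separately all probe sets, were fitted with lmFit and eBayes (limma 3.58.1, statmod 1.5.0, R 4.3.3) as p53 on minus p53 off, with Benjamini-Hochberg adjustment over all features, 2 residual and 5.47 moderated degrees of freedom, and no filter on dim genes. Confidence intervals are 95%. An exact permutation test of 2 against 2 arrays cannot go below p = 0.333, so none was used. The number of arrays limits the precision. Figures used Python 3.11.15 and matplotlib 3.10.9.

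Members and lists were chosen with earlier results of these data known. Named were all members, up to 3 called genes with the largest fall and 3 with the largest rise in each list of other repair genes, up to 3 in each context list, and Cdkn1a and Mdm2; values per array are given for members past the threshold or changed by at least 0.5. Epcam, Lyve1, Cd8b1, Gzma, Cd22, Apob, Mlh3, Msh3, Pms1 and Pms2, and the array values of other members, were added after their values were seen. Alternatives were a replicate block, quantile normalization, median centring, spike-in scaling (18 control probe sets), leaving out the dimmest 40% of genes, the mean of all probe sets, the brightest probe set without a suffix letter (_a, _s or _x), trend and robust eBayes, array weights, an adjusted p under 0.01 and leaving out each array; a crossed replicate block was added after the data were seen.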

Additional observations from a re-analysis of the deposited data

How the results depend on the processing

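The 16 members lower became 10 without the dimmest 40% of genes, which leaves out 11 members, 6 of them lower. The 2 members higher became 1 with the crossed replicate block, 0 with the mean of all probe sets (limma; 0 at an unadjusted p under 0.05) and 1 at an adjusted p under 0.01. Member probe sets higher (2) became 1 with the replicate block, the crossed block, without the dimmest 40% and at 0.01, and 5 with spike-in scaling; those lower (23) became 15 at 0.01. Of the other repair and checkpoint genes, 12 higher became 7 with the crossed block and 6 at 0.01, and 25 lower became 10 at 0.01. The members' median was -0.34 after centring and -0.134 with spike-in scaling, where the median of all genes was -0.0521 and 0.154. Leaving out each array gave 7 to 16 members lower and 0 to 2 higher (limma), 10 to 20 probe sets lower and 0 to 1 higher, 9 to 29 other genes lower and 4 to 10 higher, and medians of -0.312 to -0.301. Rad51b reversed to -0.25 with the mean of its probe sets; Mre11a reversed to 0.015 and Ercc8 to -0.020 in the brightest probe set without a suffix letter. Each of these values rests on a second probe set of the gene. Of 18 called members 6 (Brca1, Rad18, Fancb, Chek1, Chek2 and Topbp1) kept their call under every alternative run, and 12 lost it under at least 1, 11 of them without p53 off replicate 2; 7 members not called gained a call under at least 1 (Bard1, Palb2, Rad54l, Fancc, Fanci, Atm and Atr). With 1 array left in a group, it was taken to vary as the other group does. Without p53 off replicate 1 or 2 fewer of all genes passed too, in each direction. Same-numbered arrays deviated with r = -0.154 across genes. With 2 arrays per group this value cannot show whether the numbers pair the samples. The replicate block gave 15 members lower and ended the call of Blm (limma adjusted p = 0.0511). Among other genes named it ended those of Rad52 (0.0601), Parp2 (0.0871), Poll (0.0922), Ddb1 (0.0922), Nthl1 (0.061) and Ung (0.0525). The crossed block gave 12 members lower and ended the calls of Rad51b (0.0524), Xrcc3 (0.0696), Rad54b (0.0706), Blm (0.0525) and Clspn (0.102), and of Rad52, Fancf, Parp2, Poll, Gtf2h4, Ddb1, Ercc8 and Ung. RMA gives no detection call, so dim members have an unknown margin over background.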

Other observations

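Genes of excision repair, which mends damaged bases and bulky lesions and is not part of recombination, held genes that were higher and genes that were lower. The shares of all genes were 14% higher and 14.7% lower. Of 16 measured nucleotide excision repair genes 4 were higher and 3 lower in p53 on (25% and 18.8%), with a median of -0.104. Ercc5, the endonuclease that cuts on the 3' side of a lesion, was at 7.86 and 7.49 in p53 off, against 8.77 and 8.86 in p53 on, a rise of 1.14 ± 0.14 (limma adjusted p = 0.00338). Ddb2, a lesion sensor gene, rose by 0.58 ± 0.075 and Ercc8 by 0.36 ± 0.079. Gtf2h4, a TFIIH subunit gene, changed by -0.71 ± 0.12, Rad23b, whose protein holds the lesion sensor XPC, by -0.49 ± 0.071 and Ddb1 by -0.35 ± 0.099. Of 12 base excision repair genes 3 were lower and 1 higher (25% and 8.33%), with a median of -0.197. The glycosylase genes Nthl1 and Ung changed by -0.39 ± 0.090 and -0.33 ± 0.073 and the endonuclease gene Apex1 by -0.37 ± 0.074, while the glycosylase gene Mpg rose by 0.49 ± 0.082. Without p53 off replicate 2 the calls of Ercc8 (0.148), Gtf2h4 (0.0671, range 0.00438 to 0.0671), Rad23b (0.0558, range 0.00284 to 0.0591), Ddb1 (0.145), Nthl1 (0.108), Ung (0.155, range 0.0125 to 0.155), Apex1 (0.119, range 0.00723 to 0.119) and Mpg (0.0665, range 0.00421 to 0.0665) were lost. Without p53 off replicate 1 those of Ercc8 (0.0775, range 0.00826 to 0.891), Ddb1 (0.202, range 0.0177 to 0.202), Nthl1 (0.136, range 0.01 to 0.136), Ung (0.0899), Apex1 (0.0759) and Mpg (0.0593) were lost, and without p53 on replicate 1 those of Ercc8 (0.0635), Ddb1 (0.132), Nthl1 (0.0724) and Ung (0.0628). Spike-in scaling ended the calls of Ddb1 (0.167), Nthl1 (0.103), Ung (0.115) and Apex1 (0.074), quantile normalization that of Ddb1 (0.122), the brightest probe set without a suffix letter that of Ddb1 (0.0502), and the mean of all probe sets those of Ercc8 (0.12, adjusted p = 0.247) and Rad23b (-0.21, adjusted p = 0.0591). With that mean Ercc5 was at 0.62 (adjusted p = 0.00612).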
